A study of Homo sapiens with 8 samples.

Results

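Cells returned the ERβ5 isoform after a knockout of estrogen receptor beta (ERβ, gene ESR2) were compared with the unmodified cells they came from, to describe what still differed from control once the isoform had been put back. The comparison used the libraries whose titles name ERβ5 (ERb5, 2 libraries) and those titled control (2 libraries), which is 4 of the 8 libraries of the study. All genes that passed a filter on low counts entered it, 13915 of the 23228 genes listed. Every library carries the label U87 MG, a long-established line of human glioblastoma cells, and was grown in DMEM with fetal bovine serum. In ERb_KO (2 libraries), CRISPR/Cas9 had removed ERβ, and in ERb1 (2 libraries) the ERβ1 isoform had been returned to such knockout cells. By these labels ERb5 carries both the knockout and the returned isoform, and control carries neither. The labels do not say how the isoforms were delivered, whether a line is 1 clone, or whether replicate libraries had separate cultures as their source. The p-values therefore measure only the spread between these libraries, which may be technical.

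ERβ is a nuclear receptor that binds estrogens and DNA. ERβ1 is its full-length form, while ERβ5 is a splice variant with another carboxy-terminal end. Interferons, which feature in much of what follows, are secreted proteins whose receptors activate transcription factors that include STAT2 and IRF9. These bind a short DNA motif, the interferon-stimulated response element, and switch on antiviral genes.

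The 4 libraries held 27513034 to 41594980 reads in genes, and replicates correlated at r = 0.996 in control and 0.991 in ERb5 across genes, which are not independent replicates. Beyond sampling noise, the ERb5 libraries differed more from each other than the control libraries did (chi-square divided by its degrees of freedom, 42.1 against 7.69). The share of reads with no single place in the genome was 39.7 and 39.9% in control and 35.5 and 34.7% in ERb5. Markers were checked against the labelled cell type. Of 34 genes of luminal epithelium, 32 reached 10 CPM (counts scaled to a common library size) in control and in ERb5, whereas of 21 glial and glioma genes 5 did. The astrocyte filament gene GFAP had 2 and 5 reads in control and 4 and 3 in ERb5, and OLIG2 and S100B had 0 reads. The summed luminal level ran from 19280 to 19990 CPM in control and from 20980 to 21920 CPM in ERb5. Defining genes of immune, endothelial, basal epithelial and muscle cells were near 0, with 1 of 16, the smooth muscle actin ACTA2, at 10 CPM or more in both libraries of a group, and a summed level of 28.7 and 35.1 CPM in control and 25.2 and 29.5 CPM in ERb5. Of the 4 tested, CD68, a lysosomal protein abundant in macrophages, was at 5.76 and 6.20 CPM in control and 9.19 and 13.1 CPM in ERb5 (0.90 ± 0.18, edgeR adjusted p = 0.00768), and ACTA2 was lower (-0.74 ± 0.17, edgeR adjusted p = 0.0164). CD68 was not called without control library 1 or ERb5 library 2, nor ACTA2 without control library 2 or ERb5 library 2. The leukocyte gene PTPRC had 0 reads in each control library and 1 in each ERb5 library, and the part of CD68 in the immune gene results below was not tested. The expression profile is thus not that of glial cells, and U87 MG is used here only as the label. In bulk RNA, more cells with a transcript and more transcript per cell cannot be told apart.

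ESR2 itself was close to the detection limit. It had 0.608 and 0.546 CPM in control against 0.201 and 0.367 CPM in ERb5, a log2 change of -1.06 ± 0.44 (SE) that did not pass edgeR's quasi-likelihood test (adjusted p = 0.138). The 2 ERb5 libraries lay below both control libraries, so the counts do not show a returned isoform. Whether the construct's transcript would be counted as ESR2 was not tested. ESR1, which encodes estrogen receptor alpha, had 131 and 115 CPM in control and 130 and 106 CPM in ERb5. PGR, a classical estrogen receptor alpha target, had 0 reads in all 4 libraries. The membrane estrogen receptor GPER had 4.04 and 3.36 CPM in control and 5.66 and 5.36 CPM in ERb5 and did not pass (edgeR adjusted p = 0.0501). ESR2 was at 0.528 and 0.692 CPM in ERb_KO and 0.225 and 0.372 CPM in ERb1, so the counts do not show the knockout either. ESR2 overlaps SYNE2 on the other strand over 142202 bases, and whether counting used strand is not given. Reads of the 2 genes therefore cannot be told apart there, and the labels cannot be checked from these counts. ERb5, ERb_KO and ERb1 below stand for the libraries so labelled.

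Against control, ERb5 showed a strongly raised set of interferon-induced, antigen presentation and inflammatory genes, and lower levels of chaperones of the endoplasmic reticulum, ribosomal proteins and snoRNA host genes. The genes of mitosis that passed the test, a minority, were lower, and so were those of DNA replication apart from 1. At an adjusted p under 0.05, edgeR called 1831 of the 13915 genes tested (13.2%), of which 953 were higher in ERb5 (6.85%) and 878 lower (6.31%). Among the 520 called genes with a change of at least 2-fold (3.74%), 368 were higher (2.64%) and 152 lower (1.09%), and 343 of any direction were called at that size without control library 1. The median log2 change over all tested genes was 0.0066. The count of calls depended on single libraries: it was 587 without control library 1, 732 without control library 2, 1081 without ERb5 library 2 and 2143 without ERb5 library 1.

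**Figure D1:**
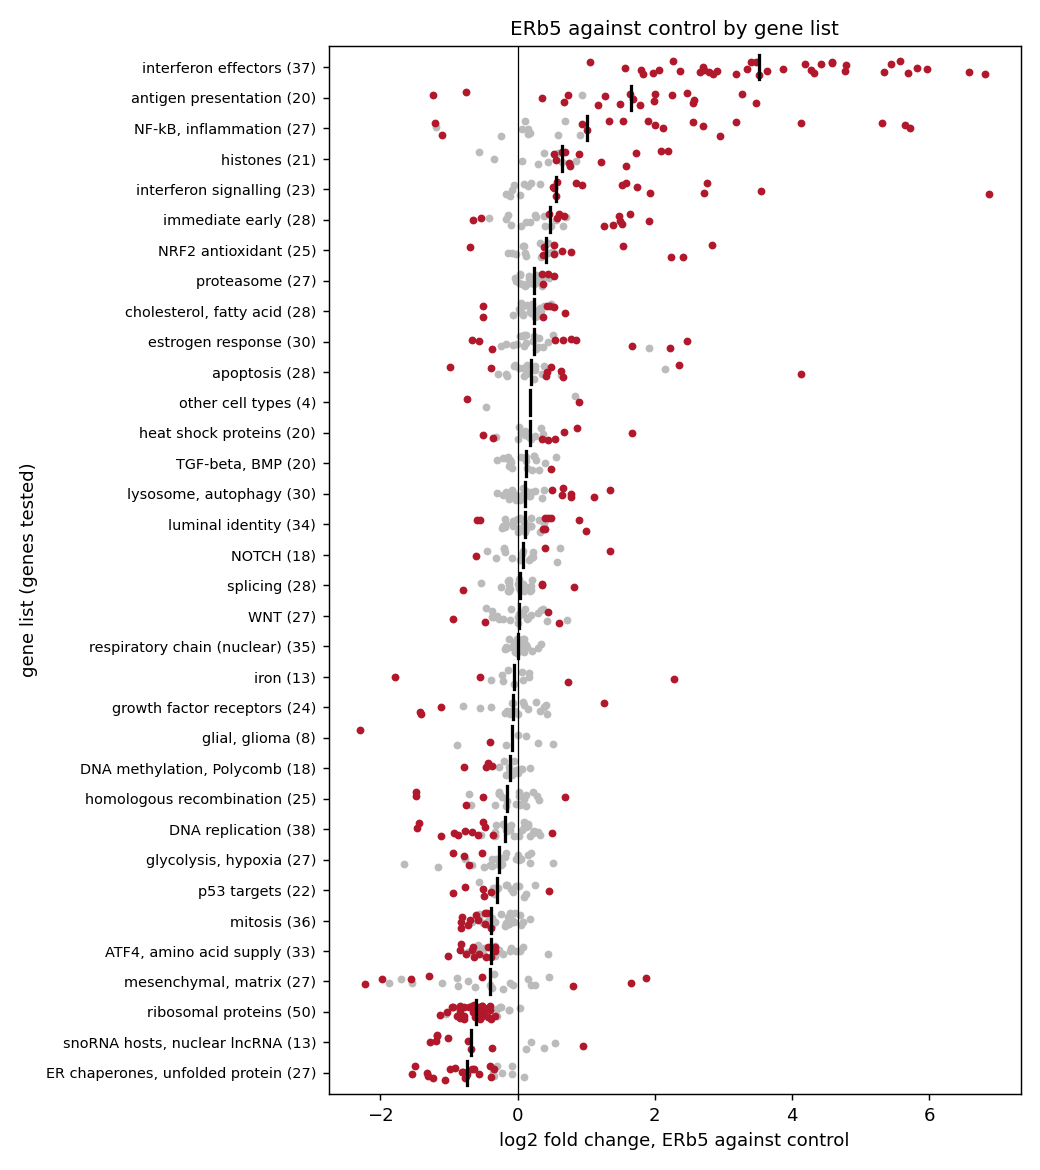
Each point is a gene of 1 of 34 lists, placed by its log2 fold change in ERb5 against control (x axis). Rows are the lists with the number of genes tested, red points passed an adjusted p under 0.05, grey points did not, and black bars are list medians. Interferon effectors lie furthest to the right, all 37 red, and ribosomal proteins and endoplasmic reticulum chaperones lie mostly to the left of 0.

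Antiviral effectors gave the largest rises. Of 37 tested interferon effector genes, all 37 rose, against 6.85% of all genes tested, with log2 changes from 1.05 to 6.81 and a median of 3.52. IFIT3, a partner of the RNA-binding antiviral protein IFIT1, had 15.4 and 16.5 CPM in control and 565 and 1434 CPM in ERb5. Both ERb5 libraries lay far above control, and the second lay well above the first. The log2 change of IFIT3 was 5.97 ± 0.45 (edgeR adjusted p = 7.62e-05). IFIT3 lies at 91087064 to 91137230 on chromosome 10 (GRCh37) and overlaps LIPA on the other strand. Whether counting used strand is not given in the sources used here, so their reads cannot be told apart. IFIT1 had 76.6 and 74.6 CPM in control and 1372 and 2268 CPM in ERb5 (log2 change 4.59 ± 0.24, edgeR adjusted p = 7.3e-06). ISG15 encodes a ubiquitin-like protein that is attached to other proteins during the interferon response. It went from 69.0 and 66.7 CPM to 1068 and 2671 CPM (4.78 ± 0.39, edgeR adjusted p = 0.000118).

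XAF1, an interferon-induced promoter of cell death, had the largest fitted rise among genes with at least 5 CPM in the higher group. XAF1 (chromosome 17, 6658766 to 6678966, GRCh37) was at 0.851 and 1.01 CPM in control and at 54.5 and 155 CPM in ERb5 (6.81 ± 0.54, edgeR adjusted p = 0.000106). RSAD2, the antiviral radical SAM enzyme viperin, followed with 3.26 and 3.98 CPM in control and 188 and 508 CPM in ERb5 (6.59 ± 0.49, edgeR adjusted p = 7.3e-05). The neighbouring CMPK2, a mitochondrial nucleotide kinase on the other strand, overlaps RSAD2 in the annotation, so reads of their shared stretch cannot be told apart. CMPK2 was at 3.11 and 2.76 CPM in control and 96.1 and 239 CPM in ERb5. The growth-restricting genes SAMD9 and SAMD9L, the membrane-associated IFI27 and the transcription factor BATF2 rose by 4.78, 5.34, 5.69 and 4.65 on the log2 scale. MX1, a dynamin-like antiviral GTPase, rose least within the list. It had 6.57 and 6.85 CPM in control and 11.3 and 16.6 CPM in ERb5 (1.05 ± 0.20, edgeR adjusted p = 0.00465) and is named after its values were seen. For this list, 35 of the 37 genes kept their call without control library 1 or without control library 2, and 37 without either ERb5 library.

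The promoters of these genes are shown because many share the interferon-stimulated response element. Its core, GAAA then any 2 bases then GAAA, was searched on both strands between 250 bases before and 50 after the RefSeq start of each gene (GRCh38.p14). Of 30 interferon effectors with a matched promoter, 21 held the core (70%). Among all 10570 tested genes with a promoter, 290 did (2.74%), and among all 27305 RefSeq promoters 996 did (3.65%). The genes shown were chosen by size of rise among list genes with a matched promoter that holds the core before the start. XAF1 and RSAD2, which rose furthest in the list, are not among them. In the stretches below, written along the strand of the gene, capitals mark the core or its reverse complement closest before the gene's start. Further matches in the stretches of IFIT1, ISG15 and IFI27 were left in lower case.
IFIT3: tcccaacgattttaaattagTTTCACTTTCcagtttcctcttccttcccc
IFIT1: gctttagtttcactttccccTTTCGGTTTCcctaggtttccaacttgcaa
ISG15: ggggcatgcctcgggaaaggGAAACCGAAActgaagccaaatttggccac
IFI27: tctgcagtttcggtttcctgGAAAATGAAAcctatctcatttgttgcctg
SAMD9: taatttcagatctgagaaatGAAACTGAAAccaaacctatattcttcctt
They lie at chr10:89327855-89327904, chr10:89392500-89392549, chr1:1013370-1013419 and chr14:94110621-94110670 on the plus strand and at chr7:93118086-93118135 on the minus strand. The core of IFIT3 runs from base -122 to -113 relative to the gene's start, and that of SAMD9 from -136 to -127. A match is a description of letters, and factor binding was not measured.

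**Figure D2:**
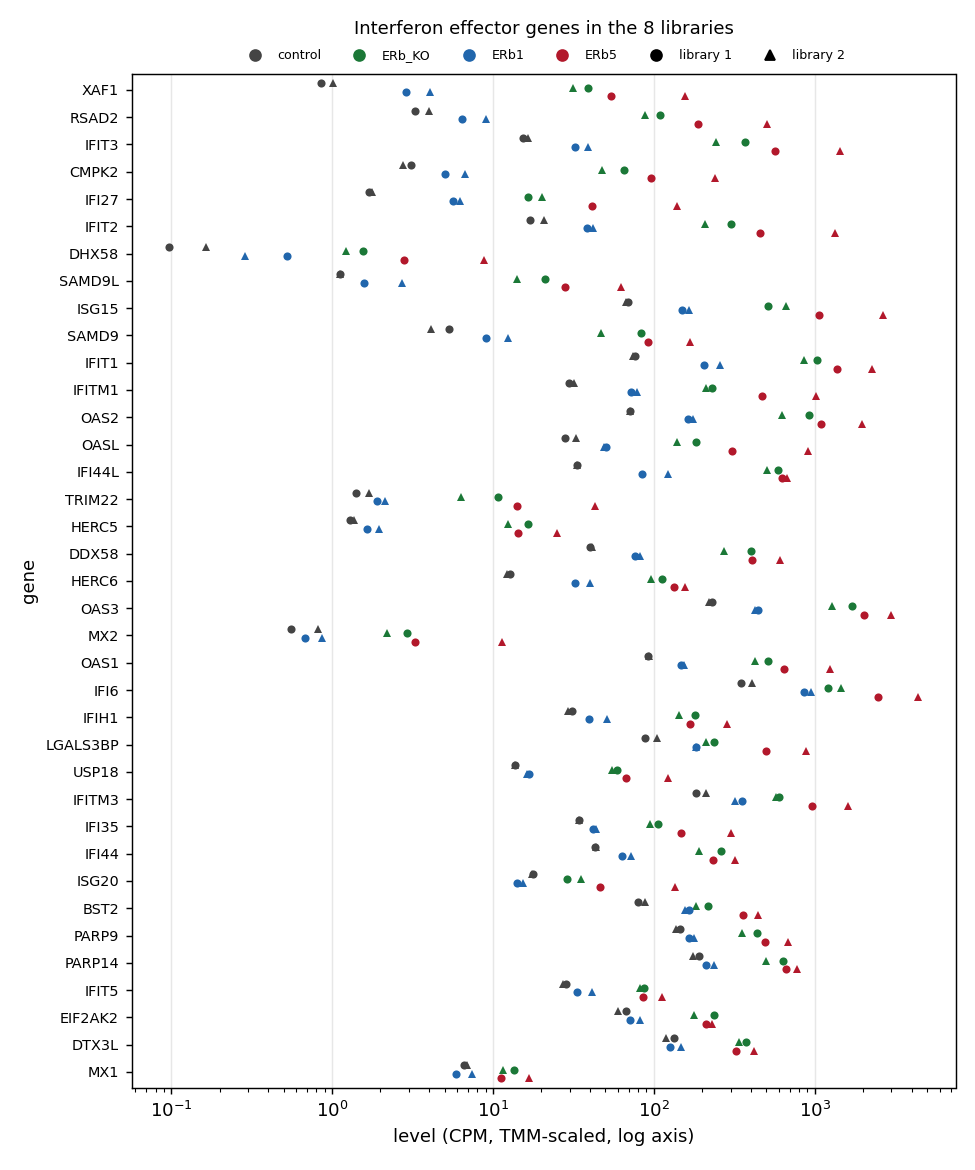
Levels of the 37 tested interferon effector genes in each of the 8 libraries (x axis, TMM-scaled CPM on a log axis), 1 gene per row in order of the log2 change, coloured by group, with circles for library 1 and triangles for library 2. The ERb5 points lie to the right of both control points in every row, and for all 37 genes the second ERb5 library lies to the right of the first.

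The 2 ERb5 libraries differed in size of response. Every one of the 37 interferon effectors was higher in ERb5 library 2 than in library 1, with a median ratio of 1.79, while the median ratio between the control libraries was 1.02. Over all 13915 genes the same ratio in ERb5 was 1, and 6972 of them were higher in ERb5 library 2. Relative to the control mean, the list's median level was 3.18 in ERb5 library 1 and 3.90 in library 2 on the log2 scale. It was 2.80 and 2.24 in the ERb_KO libraries and 0.83 and 0.92 in the ERb1 libraries. The GC content of genes correlated across genes with a library's deviation from the mean of all libraries at r = 0.11 in ERb5 library 1, 0.33 in ERb5 library 2 and -0.54 and -0.45 in ERb_KO. With GC and length trends removed, 37 of the 37 effectors still rose in ERb5 against control.

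Compared directly, most interferon effectors were higher in the libraries labelled ERb5 than in those labelled ERb_KO. ERb5 against ERb_KO called 28.2% of all genes. Of the 37 effectors 28 were higher in ERb5 and 0 lower, where 14.7% of all genes were higher, and the median difference was 1.02 on the log2 scale. The count was 13 without ERb_KO library 1, 5 without ERb_KO library 2 and 17 without ERb5 library 2. IFI27 was at 16.6 and 20.1 CPM in ERb_KO against 41.1 and 140 CPM in ERb5 (2.30, edgeR adjusted p = 0.0078). IFI44L, named after its values were seen, was at 594 and 509 CPM in ERb_KO and 626 and 676 CPM in ERb5, a difference of 0.24 ± 0.15 (edgeR adjusted p = 0.249). ERb5 against ERb1 called 4.66% of all genes. There 37 of 37 effectors were higher in ERb5, where 3.49% of all genes were, and 21 without ERb1 library 1. ERb_KO against control, which uses the same control libraries, called 17.5% of all genes and 35 of the 37 effectors higher (8.98% of all genes) with a median of 2.48.

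The ligand, receptors and transcription factors of the pathway moved unequally. IFNB1, which encodes interferon beta, was too low to test, with 0 and 2 reads in control, 8 and 31 in ERb5, 6 and 4 in ERb_KO and 0 and 1 in ERb1. The receptor subunit IFNAR1 and the kinase JAK1 were not called, with log2 changes of -0.05 and 0.20. STAT2, a transcription factor of the response, had 69.2 and 73.3 CPM against 210 and 334 CPM (1.93 ± 0.22, edgeR adjusted p = 0.000496). IRF9, which joins STAT2 in a complex, rose by 1.53 ± 0.13, and IRF7, which amplifies interferon production, by 2.72 ± 0.35. TLR3, a sensor of double-stranded RNA, went from 0.681 and 0.846 CPM to 5.43 and 12.6 CPM (3.55 ± 0.44, edgeR adjusted p = 0.000855). In all, 14 of the 23 tested genes of this list rose and 0 fell, with a median of 0.55, and the count was 5 without control library 1 and 9 without control library 2. Of all genes tested, 6.85% rose. IFNAR1 and IRF9 are named after their values were seen.

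Antigen presentation by HLA class I rose along most of its steps. Of 20 tested genes, 17 rose (85%, against 6.85% of all genes) and 2 fell (10%, against 6.31%), with a median log2 change of 1.66. Among the peptide-cutting subunits, PSMB9 of the immunoproteasome was at 5.38 and 5.46 CPM in control and 31.1 and 89.5 CPM in ERb5 (3.47 ± 0.42, edgeR adjusted p = 0.000934). TAP1 and TAP2 form the transporter that carries peptides into the endoplasmic reticulum. TAP1 went from 72.9 and 77.4 CPM to 283 and 599 CPM (2.55 ± 0.28) and TAP2 from 64.8 and 60.2 CPM to 255 and 438 CPM (2.47 ± 0.21). TAP1 and PSMB9 overlap on opposite strands, so their reads may be shared. NLRC5, the transactivator of class I genes, rose by 3.27 ± 0.35 from 8.49 and 9.66 CPM to 53.7 and 122 CPM (edgeR adjusted p = 0.000496). The non-classical HLA-F rose by 2.58 ± 0.32, although HLA levels are uncertain because reads that match several copies were not counted. The members that fell, CALR and PDIA3 (named after its values were seen), are general folding factors that also load peptides. ERb5 library 2 was above library 1 in 19 of the 20 genes (6972 of all 13915 genes), with a median ratio of 1.91. Of 16 matched promoters, 9 held the interferon response core (56.2%), against 2.74% of the tested genes with a promoter. In the list of interferon ligands, receptors and factors, 2 of 15 matched promoters held it (13.3%).

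Inflammatory targets of NF-kB, the factor that drives many cytokine genes, were also for the most part above control. Of 27 tested genes, 15 rose (55.6%, against 6.85% of all genes) and 2 fell (7.41%, against 6.31%), with a median of 1.01. The chemokine CCL20 was at 0.0486 and 0.164 CPM in control, a handful of reads, and at 4.19 and 7.13 CPM in ERb5 (edgeR adjusted p = 3.82e-05). BIRC3, an inhibitor of apoptosis and a feedback target of NF-kB, went from 1.34 and 1.15 CPM to 13.9 and 30.3 CPM (4.14 ± 0.44, edgeR adjusted p = 0.000509). CCL5, a chemokine for T cells, went from 0.924 and 1.01 CPM to 5.46 and 12.3 CPM (3.18 ± 0.36). The subunit genes NFKB1 and RELA did not pass, with log2 changes of 0.12 ± 0.09 and 0.07 ± 0.11. Other subunits of the factor are not reported here. The 2 that fell were the cytokine genes IL1B and CSF3, at -1.20 and -1.11, named after their values were seen. Neither was called without control library 2, and 1 of them was called without either ERb5 library. Over all genes tested, 14.7% were higher and 13.5% lower in ERb5 than in ERb_KO, and 6972 of 13915 were higher in ERb5 library 2 than in library 1. Again 24 of the 27 genes were higher in ERb5 library 2 than in library 1, with a median ratio of 1.6. Against ERb_KO, 11 of these genes were higher in ERb5 and 2 lower, and 2, 2 and 0 were higher without ERb_KO library 1, ERb_KO library 2 or ERb5 library 2.

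The endoplasmic reticulum showed the opposite direction. Its chaperones fold secreted and membrane proteins, and the unfolded protein response raises them when folding falls behind. Of 27 tested genes of this list, 20 fell, against 6.31% of all genes tested, and 0 rose, with a median log2 change of -0.74. Without control library 1 the count was 13. HSP90B1, the HSP90 form of this compartment, was at 3813 and 3834 CPM in control and 1483 and 1238 CPM in ERb5. The groups were well separated, with a log2 change of -1.49 ± 0.12 (edgeR adjusted p = 2.45e-05). A pseudogene copy and the overlapping C12orf73 leave its level uncertain. HSPA5, the HSP70 chaperone BiP, was at 4045 and 3930 CPM in control and 1758 and 1448 CPM in ERb5 (-1.31 ± 0.19, edgeR adjusted p = 0.00166).

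PDIA4, a disulfide isomerase, fell furthest in the list, from 1638 and 1669 CPM to 612 and 532 CPM (-1.53 ± 0.12, edgeR adjusted p = 2.97e-05). The calcium-binding lectin chaperone CALR was at 3460 and 3616 CPM in control and 1605 and 1413 CPM in ERb5 (-1.23 ± 0.14). CRELD2, a stress-induced folding factor, went from 198 and 214 CPM to 82.1 and 84.9 CPM (-1.30 ± 0.14). XBP1, a transcription factor of the response, was at 3489 and 3555 CPM in control and 3592 and 3954 CPM in ERb5 and did not pass (0.10 ± 0.10, edgeR adjusted p = 0.573). The translocon subunit SEC61A1 was not called either, at -0.08 on the log2 scale.

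Some promoters of these genes hold the endoplasmic reticulum stress element, CCAAT then any 9 bases then CCACG, searched on both strands over the same window. Of 26 matched genes of the list, 6 held it (23.1%), compared with 14 of 10570 tested genes (0.132%) and 22 of all 27305 promoters (0.0806%). The stretches of 4 genes are shown, chosen by size of fall among list genes that hold the element before their start. PDIA4, which fell furthest in the list, is not among them. Capitals mark the element or its reverse complement.
HSP90B1: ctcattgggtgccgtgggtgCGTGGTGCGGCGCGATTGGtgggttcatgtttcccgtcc
HSPA5: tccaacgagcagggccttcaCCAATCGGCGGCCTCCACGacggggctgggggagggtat
CRELD2: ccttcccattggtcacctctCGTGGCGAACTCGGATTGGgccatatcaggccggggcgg
CALR: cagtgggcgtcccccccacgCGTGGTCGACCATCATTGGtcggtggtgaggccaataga
On GRCh38.p14 they lie at chr12:103930301-103930359 (plus strand), chr9:125241371-125241429 (minus), chr22:49918534-49918592 (plus) and chr19:12938364-12938422 (plus). In HSPA5 the element runs from base -66 to -48 relative to the gene's start.

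**Figure D3:**
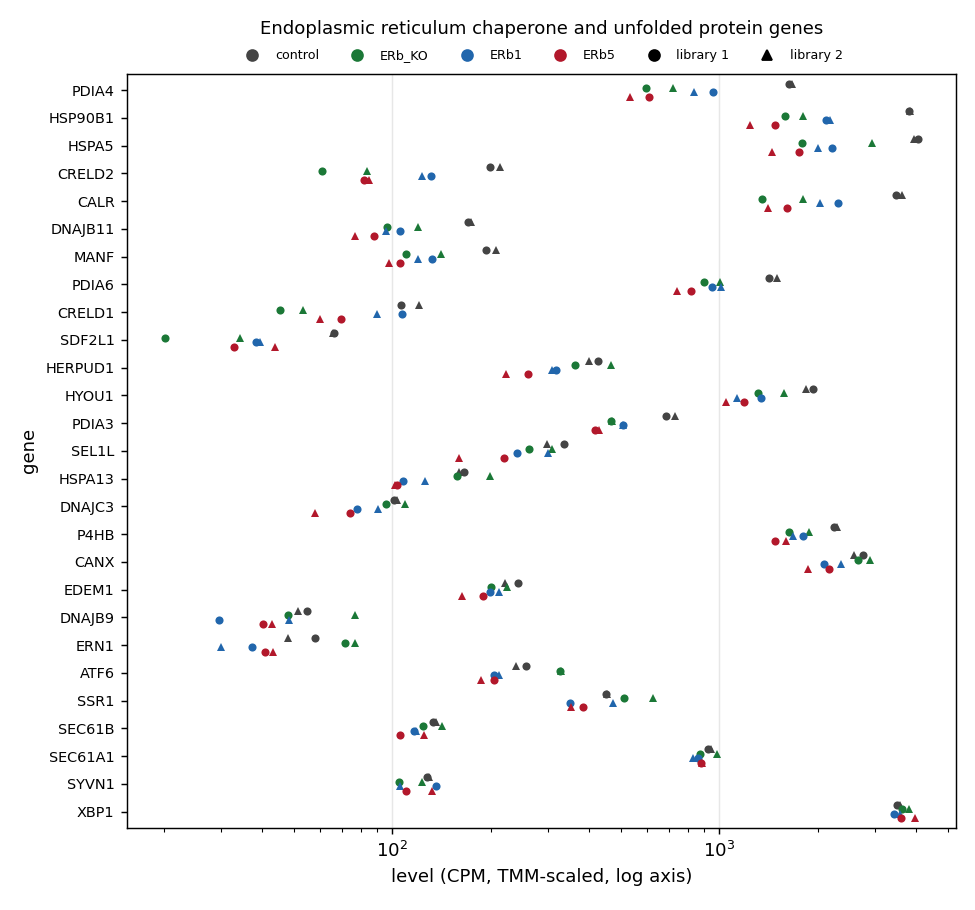
Levels of the 27 tested chaperone and unfolded protein response genes in the 8 libraries (x axis, TMM-scaled CPM on a log axis), in order of the log2 change in ERb5 against control, with groups by colour and the library number by symbol. The upper rows show both ERb5 libraries far to the left of both control libraries, and in the bottom row XBP1 shows no such gap.

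Against the same control libraries, ERb_KO called 12 genes of this list lower (8.52% of all genes were) and 2 higher, with a median of -0.17. It called 6 lower without control library 2, and 0 higher when any 1 of the control and ERb_KO libraries was left out. Compared directly, 10 of the 27 were lower in ERb5 than in ERb_KO (13.5% of all genes) and 1 higher, with 4 lower without ERb_KO library 2 and 5 without ERb5 library 2, and 0 to 2 higher when 1 library was left out. HSP90B1 was at 1593 and 1798 CPM in ERb_KO, a difference of -0.32 that did not pass (edgeR adjusted p = 0.0553). HSPA5 was at 1792 and 2938 CPM in ERb_KO, so that 1 library lay close to ERb5 and the other between ERb5 and control. Against ERb1, 4 genes were lower in ERb5 (1.18% of all genes) and 0 higher, and 0, 2 and 1 were lower without ERb1 library 1, ERb1 library 2 or ERb5 library 2, and 8 without ERb5 library 1. Among 20 tested heat shock and cytosolic chaperone genes 6 rose and 2 fell, with 2 and 3 rising without control library 1 or control library 2 and 0 falling without either control library or ERb5 library 2. The shares of that list were 30% rising and 10% falling, against 6.85% and 6.31% of all genes. HSPB8, a small heat shock protein, rose from 64.4 and 75.1 CPM to 179 and 263 CPM (1.67 ± 0.17). DNAJA1, a co-chaperone of HSP70, rose by 0.87 ± 0.13.

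Ribosomal protein genes were broadly lower by a small amount, where 6.31% of all genes tested fell. Of 50 tested genes, 42 fell and 0 rose, with a median log2 change of -0.60, and 23 fell without control library 1 and 23 without control library 2. RPL5, which binds the 5S RNA in the large subunit, was at 575 and 575 CPM in control and 310 and 252 CPM in ERb5 (-1.03 ± 0.11, edgeR adjusted p = 0.000215). RPL3, near the peptidyl transferase center, went from 1467 and 1512 CPM to 893 and 722 CPM (-0.88 ± 0.12). RPL28 and RPS19 did not pass, at -0.12 and -0.30. Reads that also match processed pseudogenes were not counted, so single members are uncertain. In ERb_KO against control, 8.52% of all genes were lower. ERb_KO against the same controls called 46 of the 50 lower with a median of -0.53, but 11, 3 and 6 when control library 1, control library 2 or ERb_KO library 1 was left out. ERb5 against ERb_KO, where 28.2% of all genes were called, had 2 lower and 1 higher. The lower count was 4, 0, 7 and 1, and the higher count 0, 4, 4 and 0, without ERb_KO library 1, ERb_KO library 2, ERb5 library 1 or ERb5 library 2.

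The long noncoding genes that host snoRNAs, the guides of ribosomal RNA modification, fell too. Of 13 tested genes in the list of snoRNA hosts and nuclear noncoding RNAs, 8 fell and 1 rose, with a median of -0.69. The shares were 61.5% and 7.69%, against 6.31% and 6.85% of all genes. GAS5 was at 532 and 541 CPM in control and 246 and 230 CPM in ERb5 (-1.17 ± 0.15, edgeR adjusted p = 0.00048). SNHG1 went from 144 and 131 CPM to 57.9 and 55.0 CPM (-1.28 ± 0.13, edgeR adjusted p = 0.000119). The nuclear RNA TUG1 did not pass (0.19). MALAT1 was the gene of the list that rose, by 0.95 ± 0.19, and is named after its values were seen. Without control library 1 or without ERb5 library 1, 0 genes of the list rose.

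ATF4, the effector of the integrated stress response, raises genes for amino acid synthesis, uptake and tRNA charging. Over all genes tested, 6.31% fell in ERb5 against control. Of 33 tested genes of this list, 13 fell and 0 rose, with a median of -0.39, and 4 fell without control library 1 and 8 without control library 2. SHMT2, the mitochondrial enzyme that makes one-carbon units from serine, was at 825 and 804 CPM in control and 399 and 406 CPM in ERb5 (-1.02 ± 0.09, edgeR adjusted p = 7.02e-05). Its groups did not overlap and replicates lay close together. The transporter subunit SLC3A2 went from 1148 and 1048 CPM to 575 and 668 CPM (-0.82 ± 0.15), and DDIT4, an inhibitor of mTORC1, from 817 and 772 CPM to 423 and 465 CPM (-0.84 ± 0.12). Compared directly, 22 of the 33 genes were lower in ERb5 than in ERb_KO, where 13.5% of all genes were. In ERb_KO against control, 8.98% of all genes were higher. ERb_KO against control called 7 higher, with a median of 0.17, and 3, 1 and 4 when control library 1, control library 2 or ERb_KO library 2 was left out.

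Division genes separated the groups in another way. Of 36 tested genes of mitosis, 11 fell in ERb5 against control (30.6%, all genes 6.31%) and 0 rose, with a median of -0.39. That count was 1 without control library 1, 3 without control library 2 and 3 without ERb5 library 1, and 0 passed when the test required more than a 1.5-fold change. TOP2A, the topoisomerase that untangles replicated DNA, was at 120 and 97.5 CPM in control and 62.0 and 61.6 CPM in ERb5 (-0.82 ± 0.14, edgeR adjusted p = 0.00255). MKI67 and CCNB1, a proliferation marker and a cyclin of mitosis, did not pass, at -0.14 and 0.08. MKI67 was at 105 and 89.0 CPM in control and 89.4 and 87.4 CPM in ERb5, so that its groups overlapped.

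In the direct comparison with the libraries labelled ERb_KO every gene of the list differed. Of all genes tested, 13.5% were lower in ERb5 than in ERb_KO and 8.98% were higher in ERb_KO than in control. In ERb5 against ERb1, 3.49% of all genes were higher. All 36 genes were lower in ERb5 than in ERb_KO, with a median of -1.24, and 35 or 36 remained when any 1 of these 4 libraries was left out. ERb_KO against the shared controls called all 36 higher, with a median of 0.90, and 15 without control library 2. Against ERb1, 29 of 36 were higher in ERb5, with a median of 0.88, but 6, 14 and 19 without ERb1 library 1, ERb1 library 2 or ERb5 library 2. Median levels relative to the control mean were -0.44 and -0.24 in the ERb5 libraries, 1.00 and 0.82 in ERb_KO, and -1.39 and -1.20 in ERb1, on the log2 scale.

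**Figure D4:**
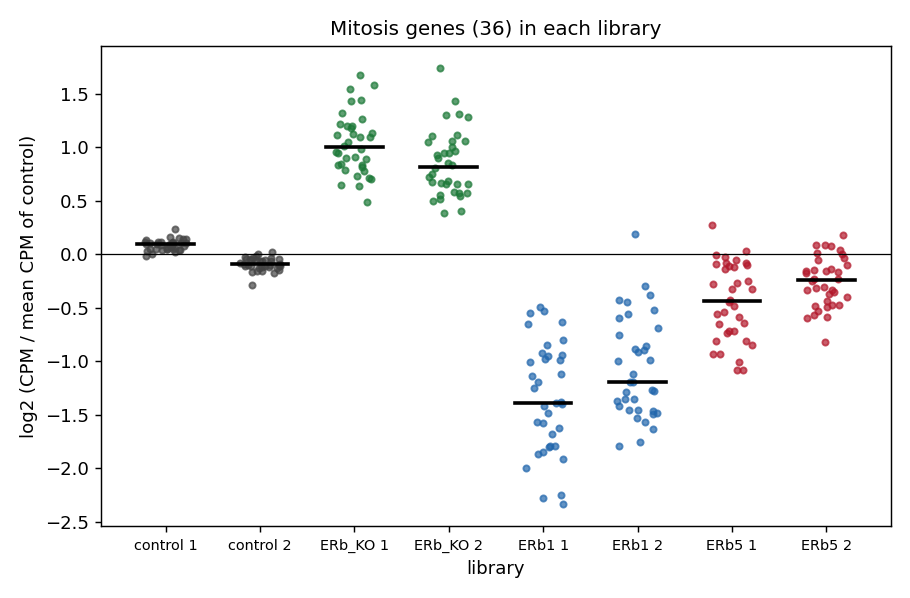
Log2 ratio of the level to the control mean (y axis) for 36 mitosis genes in each of the 8 libraries (x axis). Points are genes and black bars are medians over them. The medians of both ERb5 libraries (-0.44 and -0.24) lie slightly below those of control, between the ERb_KO libraries above and the ERb1 libraries below.

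DNA replication genes fell in part. Of 38 tested genes, 11 fell and 1, ORC6 (named after its values were seen), rose, with a median of -0.18. The shares were 28.9% and 2.63%, against 6.31% and 6.85% of all genes. The count that fell was 4 without control library 1, and the call of ORC6 was lost when any 1 of the 4 libraries was left out. RRM2, the regulated subunit of ribonucleotide reductase, which overlaps C2orf48, was at 131 and 101 CPM in control and 49.5 and 57.1 CPM in ERb5 (-1.12 ± 0.14, edgeR adjusted p = 0.000369). In ERb_KO it was at 252 and 220 CPM, which puts ERb5 at -2.15 on the log2 scale relative to ERb_KO (edgeR adjusted p = 5.83e-05). CDT1, which loads the replicative helicase, was at 90.6 and 71.4 CPM in control and 26.3 and 32.7 CPM in ERb5 (-1.46 ± 0.17, edgeR adjusted p = 0.000302). PRIM1, the catalytic primase subunit, which overlaps NACA on the same strand, went from 31.5 and 26.6 CPM to 11.5 and 10.0 CPM (-1.43 ± 0.16, edgeR adjusted p = 0.000263). The helicase subunits MCM3 and MCM4 did not pass, at 0.10 and 0.15.

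Histone genes went the other way. Of 21 tested replication-dependent histone genes, 12 rose (57.1%, all genes 6.85%) and 0 fell, with a median of 0.65. The count was 3 without control library 1, 4 without control library 2 and 5 without ERb5 library 2. HIST1H2BC was at 3.96 and 5.02 CPM in control and 11.5 and 15.4 CPM in ERb5 (1.58 ± 0.21, edgeR adjusted p = 0.000609). HIST1H1E, a linker histone, went from 0.924 and 0.464 CPM to 2.64 and 3.42 CPM (2.10 ± 0.38, edgeR adjusted p = 0.00416). In 20 of the 21 genes (6972 of all 13915 genes) ERb5 library 2 was above library 1, with a median ratio of 1.43. Histone genes are near copies of each other, and their messages mostly lack a poly(A) tail.

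Antioxidant and early response genes were partly raised (40% and 39.3%), where 6.85% of all genes tested rose. The shares that fell, 4% and 7.14%, were close to the 6.31% of all genes. Of 25 tested targets of NRF2, the factor that answers oxidative stress, 10 rose and 1 fell, with a median of 0.42, and 5, 6 and 6 rose without control library 1, control library 2 or ERb5 library 2. HMOX1, which degrades heme, was at 34.8 and 36.9 CPM in control and 178 and 335 CPM in ERb5 (2.84 ± 0.28, edgeR adjusted p = 0.000364). OSGIN1, an oxidative stress-induced growth inhibitor, went from 33.2 and 30.8 CPM to 68.1 and 117 CPM (1.53 ± 0.21). Its level is uncertain, because it overlaps MLYCD on the same strand. The ferritin chains FTL and FTH1 did not pass, at -0.14 and 0.07. The gene that fell, TKT of the pentose phosphate pathway, changed by -0.69 and is named after its values were seen. Among 28 immediate early genes, 11 rose and 2 fell, with 6, 6 and 7 rising without control library 1, control library 2 or ERb5 library 2. EGR1, a zinc finger factor induced by growth factors, was at 70.9 and 76.5 CPM in control and 236 and 224 CPM in ERb5 (1.64 ± 0.15, edgeR adjusted p = 5.25e-05). FOS, a subunit of AP-1, went from 8.76 and 9.58 CPM to 25.02 and 26.6 CPM (1.49 ± 0.12, edgeR adjusted p = 2.79e-05). MYC did not pass, at 0.25. The 2 that fell, SPRY2 and ETV5 (-0.65 and -0.54, named after their values were seen), lost their calls without control library 1, control library 2 or ERb5 library 2.

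Other large falls were found in genes of varied roles. CLGN, a chaperone best known from sperm, was at 84.1 and 76.7 CPM in control and 14.99 and 12.3 CPM in ERb5, with the groups far apart. Its log2 change was -2.55 ± 0.21 (edgeR adjusted p = 4.99e-05), the largest fall that met the naming rule after that of the uncharacterised LOC100287177. CLGN lies on chromosome 4 at 141309607 to 141348815 (GRCh37). In ERb_KO it was at 74.3 and 96.7 CPM, and the difference of ERb5 from ERb_KO was -2.64 (edgeR adjusted p = 0.000133). TGM1, a transglutaminase of the epidermal barrier, went from 13.2 and 13.1 CPM to 2.58 and 2.57 CPM (-2.35 ± 0.25, edgeR adjusted p = 0.000173). F7, coagulation factor VII, fell from 9.54 and 10.2 CPM to 2.87 and 2.61 CPM (-1.85 ± 0.18). ACO1, which senses iron and binds messenger RNAs of iron metabolism, was at 80.1 and 77.8 CPM in control and 31.5 and 14.1 CPM in ERb5 (-1.78 ± 0.28, edgeR adjusted p = 0.00354). The kainate receptor subunit GRIK3 and the potassium channel subunit KCNG1 fell by 1.83 and 1.79 on the log2 scale. GRIK3 showed 9.32 and 6.92 CPM in ERb_KO, close to its 8.003 and 7.943 CPM in control.

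The remaining lists ranged from no calls to calls in both directions. Of 35 nuclear-encoded respiratory chain subunits 0 passed edgeR's test in either direction, 2 had an unadjusted p under 0.05 and DESeq2 called 1. In that list, ATP5B, the catalytic subunit of ATP synthase, was at 1696 and 1735 CPM in control and 1705 and 1611 CPM in ERb5. The luminal epithelium list had 7 of 34 genes higher (20.6%, against 6.85% of all genes) and 2 lower, with a median of 0.10, with 2 higher when control library 1, control library 2 or ERb5 library 2 was left out, 11 without ERb5 library 1, and 0 and 1 lower without control library 1 or control library 2. MUC1, a membrane mucin, rose from 50.8 and 54.4 CPM to 86.3 and 110 CPM (0.90 ± 0.12). The factors GATA3 and FOXA1 did not pass (0.31 and -0.23). Of 30 genes raised by estrogen in luminal breast cells, 7 rose (23.3%) and 3 fell (10%), with 3 and 4 rising without control library 1 or control library 2 and 0, 1 and 1 falling without control library 1, control library 2 or ERb5 library 1. PDZK1, a scaffold of membrane transporters, went from 0.535 and 1.31 CPM to 4.42 and 4.04 CPM (2.22 ± 0.33), and the cyclin CCND1 did not pass (0.23). Of 27 mesenchymal and matrix genes 5 were lower (18.5%, against 6.31% of all genes) and 3 higher (11.1%), and 3 lower without control library 2. VIM, the mesenchymal filament, fell from 7.81 and 12.4 CPM to 2.58 and 4.37 CPM (-1.55 ± 0.28). The growth factor receptor EGFR and the cell cycle inhibitor CDKN1A were not called, at 0.15 ± 0.17 and -0.57 ± 0.19.

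Lists of repair, survival and metabolism held smaller numbers of calls, to be read against the 6.85% of all genes that were higher and the 6.31% that were lower. Of 25 tested genes of homologous recombination, 4 fell (16%), MND1 and DMC1 among them, and XRCC3 rose, with 1 falling without control library 1, 2 without ERb5 library 1 and 0 rising without control library 2. MND1, a partner of the meiotic recombinase, was at 8.34 and 7.15 CPM in control and 1.81 and 3.86 CPM in ERb5 (-1.48 ± 0.27, edgeR adjusted p = 0.00415). Of 22 targets of p53, 5 fell (22.7%) and 1 rose, with 1 falling without control library 2, 3 without ERb5 library 2, and 0 rising without either control library. CCNG1, a cyclin G induced by p53, went from 273 and 280 CPM to 162 and 126 CPM (-0.94 ± 0.16, edgeR adjusted p = 0.00236). Of 28 apoptosis genes, 7 rose (25%) and 2 fell, with 3, 3 and 4 rising without control library 1, control library 2 or ERb5 library 2 and 1 falling without any 1 of the 4 libraries. TNFSF10, which encodes the death ligand TRAIL, went from 8.88 and 8.54 CPM to 29.3 and 60.1 CPM (2.35 ± 0.28). BMF, a pro-apoptotic relative of BCL2, fell from 25.1 and 26.9 CPM to 13.7 and 12.5 CPM (-0.99 ± 0.14).

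Of 30 lysosome and autophagy genes, 7 rose (23.3%) and 0 fell, and 3 rose when control library 1, control library 2 or ERb5 library 2 was left out. OPTN, an autophagy receptor, went from 68.3 and 65.3 CPM to 134 and 206 CPM (1.35 ± 0.16, edgeR adjusted p = 0.000364). Of 28 genes of sterol and fatty acid synthesis, 5 rose (17.9%) and 2 fell, and of 27 proteasome genes 4 rose (14.8%) and 0 fell. The 2 that fell were PMVK and FADS2, of which 1 kept its call without ERb5 library 2 and 0 without any other library. In both lists 0 rose when control library 1, control library 2 or ERb5 library 2 was left out, and 10 and 8 rose without ERb5 library 1. Of 27 glycolysis and hypoxia genes 4 fell (14.8%), LDHA, PDK1, P4HA1 and KDM3A, and 1 fell without control library 1 or ERb5 library 2. P4HA1, a prolyl hydroxylase of collagen, went from 280 and 230 CPM to 145 and 120 CPM (-0.95 ± 0.15). Of 18 chromatin genes 4 fell (22.2%), UHRF1, IDH1 and EZH2 among them, and 0 fell when control library 1, control library 2 or ERb5 library 2 was left out. In the lists of iron (13 tested), splicing (28), Notch (18), Wnt (27), TGF-beta (20) and growth factor receptor genes (24), at most 3 genes passed in either direction, and each of these counts above 0 but that of the splicing gene that fell, CLK1, moved by more than 1.5 times when 1 library was left out.

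**Figure D5:**
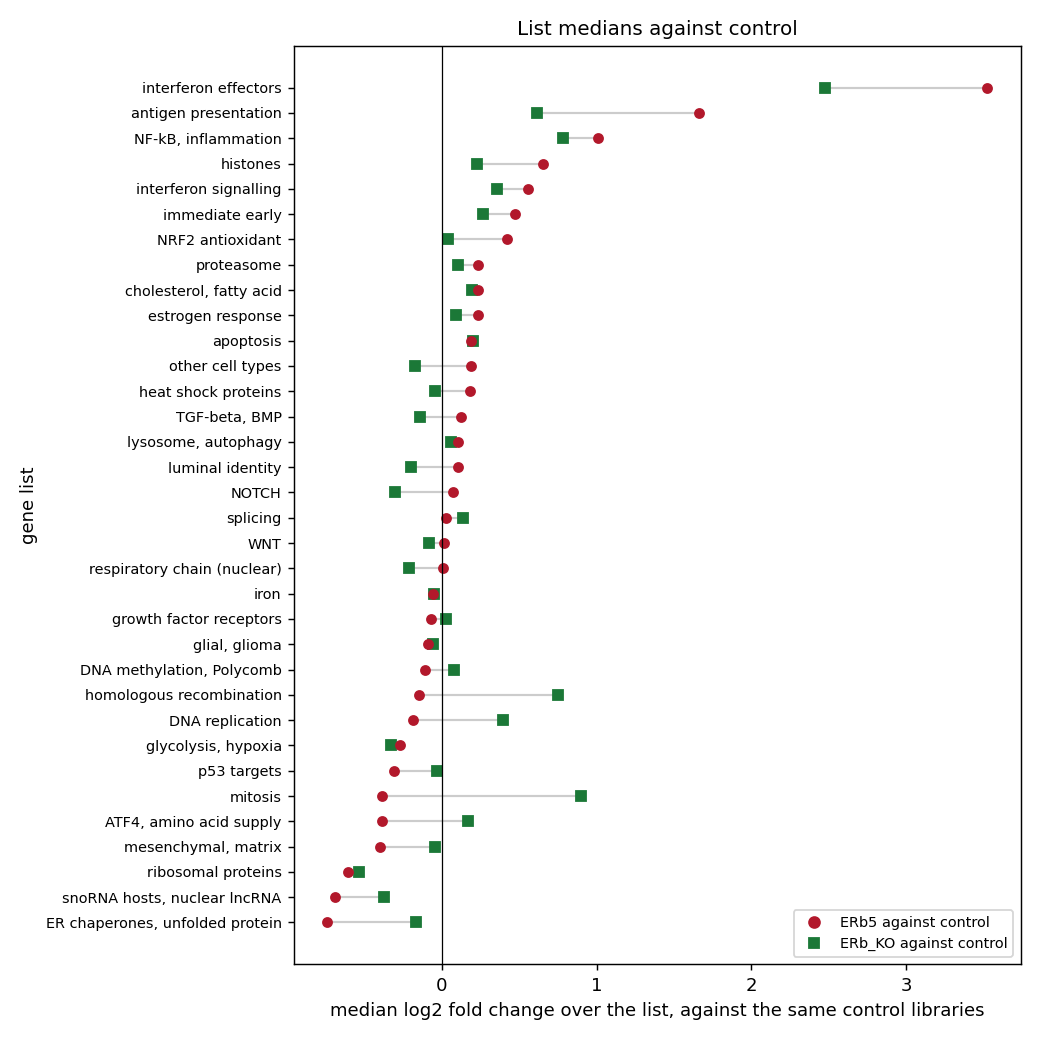
Median log2 fold change of each of the 34 lists (rows) in ERb5 against control (red circles) and in ERb_KO against control (green squares), which share the control libraries. For interferon effectors the medians are 3.52 and 2.48, for ribosomal proteins -0.60 and -0.53, and for mitosis -0.39 and 0.90.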

How the data were processed

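Total RNA of the 8 libraries was prepared with a TruSeq kit and read as 50-base single ends, per the labels' protocols. The authors deposited raw counts of reads for each gene, made with bcl2fastq, TopHat2 2.0.8b and HTSeq on hg19, per the submitters' processing notes. How HTSeq treated strand is not given in the sources used here. The 5 closing entries that name no gene stayed out of library sizes and tests. They include reads without a unique place, which were 39.7 and 39.9% of all counted reads in control and 35.5 and 34.7% in ERb5.

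Groups were taken from the library titles. Genes were filtered with filterByExpr (minimum count 10, minimum total 15), TMM-scaled and tested with edgeR 4.0.16 (robust quasi-likelihood, R 4.3.3) in 1 fit over all 8 libraries, and p-values were adjusted by Benjamini-Hochberg over all 13915 genes. A gene was called at an adjusted p under 0.05. Levels are CPM on TMM-scaled library sizes, and SE is the log2 fold change over the square root of F. The 34 gene lists (922 genes, 847 tested) and the comparison itself were chosen with earlier results of these data known. Named genes are the 15 largest rises and 15 largest falls among called genes whose higher group had 5 CPM or more and whose libraries did not overlap, up to 5 called and 2 uncalled members of each list, hormone receptor and cell cycle genes, and marker lists. GRCh37 positions were matched for 13249 genes (95.2%). Some named genes overlap another gene on the other strand without this being said beside them, such as ACTA2 with STAMBPL1 and XRCC3 with KLC1. Promoter stretches are RefSeq sequence on GRCh38.p14. The fitting steps were tested on simulated counts. Alternatives included other scalings and filters, DESeq2 1.42.0, a replicate block, GC and length correction, and leaving out each library. Some named genes are not reported here.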

Additional observations from a re-analysis of the deposited data

How the results depend on the processing

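ERb5 against control had 1831 calls. Requiring more than a 1.5-fold change left 341 (257 higher, 84 lower, 330 at least 2-fold) and left 160 against ERb_KO, 189 against ERb1 and 123 for ERb_KO against control. Leaving out 1 library gave 587 to 2143 calls, 302 to 1164 higher, 285 to 979 lower and 343 to 659 at least 2-fold. It gave 1674 to 4378 against ERb_KO, 125 to 1389 against ERb1 and 237 to 1480 for ERb_KO against control. Same-numbered libraries of control and ERb5 deviated together at r = 0.07 across genes. With so few libraries, this cannot decide whether equal numbers mark a shared culture or day. The replicate block gave 1850 calls (956 higher, 894 lower), 3929 against ERb_KO, 652 against ERb1 and 2532 for ERb_KO against control. The replicate block with GC and length trends removed gave 2906 (1504 higher, 1402 lower). Removing GC and length trends alone gave 2416 against ERb_KO, 1083 against ERb1 and 1616 for ERb_KO against control. Fitting only the groups compared gave 421 against ERb1 and 4351 for ERb_KO against control, and no filter on low counts gave 1375 against ERb1. Control and ERb_KO numbers deviated oppositely (r = -0.12), and crossing them, an alternative chosen after seeing the data, gave 1696 calls. Leave-one-out list counts for comparisons other than ERb5 against control were also added after seeing the data. Upper-quartile scaling moved the split of calls to 851 higher and 978 lower. In every case the cause was not tested. Leaving out 1 library also left fewer libraries in the fit. Of 257 named genes, 165 were called, and 0 of those changed sign under any alternative. Uncalled named genes did change sign, 21 of them without ERb5 library 2, 10 without control library 1 and 7 without ERb5 library 1. Of the 165 calls, 62 were lost without control library 1, 52 without control library 2, 17 without ERb5 library 1 and 47 without ERb5 library 2. Genes with few reads, such as ESR2 and IFNB1, are limited by depth.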

Other observations

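Another 4 gene groups were listed after their values had been seen, and are given as values of ERb5 against control with no claim beyond them. Of all genes tested, 6.85% rose and 6.31% fell. The counts of these groups were not repeated with a library left out. Of 41 tested translation factors, 20 fell and 1, EIF5B, rose, with a median log2 change of -0.38. EEF2, the factor that moves the ribosome along its message, was at 9304 and 8576 CPM in control and 4689 and 3972 CPM in ERb5 (-1.05 ± 0.12, edgeR adjusted p = 0.000322). EIF4B, a helper of the initiation helicase, went from 802 and 743 CPM to 401 and 278 CPM (-1.19 ± 0.15, edgeR adjusted p = 0.000432). The cap-binding EIF4E and its scaffold EIF4G1 did not pass, at -0.08 and 0.11.

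HLA class II genes, usually restricted to antigen-presenting cells, rose at 8 of 12 tested members with a median of 2.13. CIITA, their transactivator, was at 0.511 and 0.792 CPM in control and 2.64 and 7.49 CPM in ERb5 (edgeR adjusted p = 0.00311). CD74, the invariant chain, went from 3.23 and 3.90 CPM to 8.45 and 29.8 CPM (2.41 ± 0.48, edgeR adjusted p = 0.0108), with ERb5 library 2 far above library 1. Guanylate-binding proteins and apolipoproteins L rose at 8 of 8 tested members, with a median of 3.17. APOL1, which lyses trypanosomes, went from 4.91 and 4.80 CPM to 59.3 and 136 CPM (4.33 ± 0.36, edgeR adjusted p = 0.000131).

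Of 12 tested complement genes, 7 rose and 2 fell. CFB, factor B of the alternative pathway, went from 3.48 and 4.34 CPM to 32.3 and 94.3 CPM (4.02 ± 0.45, edgeR adjusted p = 0.000619). CD55, which protects cells from complement, was at 426 and 441 CPM in control and 244 and 236 CPM in ERb5 (-0.85 ± 0.11, edgeR adjusted p = 0.000657).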
